A study of Mus musculus with 12 samples.

Results

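The facilitative glucose transporters were examined in cardiomyocytes of the newborn mouse heart. They are the 6 genes of the family Slc2a, Slc2a1, Slc2a3, Slc2a4, Slc2a8, Slc2a10 and Slc2a12, taken by symbol from the gene count tables, which hold 24421 genes. The 12 libraries came from hearts at postnatal day 1 on a CD1 background. Every mouse carried an αMHC-Cre transgene and a Rosa26 YFP reporter (R26+/YFP), which mark cells that have used the αMHC promoter, and 4 hearts also carried aMHC-hGLUT1tg, human GLUT1 driven by that same promoter (Glut1 tg). YFP-positive cells were sorted by Mitotracker, a dye taken up by mitochondria, into Mitotracker-high cells, called Tnnt2low, and Mitotracker-low cells, called Tnnt2high, so that the names rest on the pairing of dye and Tnnt2 that the study describes. There were 4 Glut1 tg and 2 wild type (WT) libraries of each population. Each Glut1 tg replicate number is 1 heart that gave both populations, whereas both WT numbers carry the same heart number in the labels, so the 2 WT replicates may come from 1 heart and their spread may be technical.

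Glucose does not cross the plasma membrane unaided, and the proteins of the Slc2a family (GLUTs) let it move down its gradient in either direction. Slc2a1 (GLUT1) sits largely at the cell surface and is the main transporter of the fetal heart. Slc2a4 (GLUT4) is held in vesicles inside muscle and fat cells, moves to the surface on insulin or contraction, and takes over in the heart after birth. The study raised basal glucose entry with the GLUT1 transgene, and the comparisons here ask what the cells' own transporter genes showed with the transgene and between the sorted populations.

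The sequence shared between the 6 mouse genes was measured first. In the mm10 annotation Slc2a1 (ENSMUSG00000028645.11) lies on the plus strand at chr4:119108711-119137983, Slc2a3 (ENSMUSG00000003153.10) on the minus strand at chr6:122727809-122801640, and Slc2a4 (ENSMUSG00000018566.14) on the minus strand at chr11:69942539-69948188. Slc2a8 (ENSMUSG00000026791.14, minus strand) and Slc2a10 (ENSMUSG00000027661.4, plus strand) are at chr2:32972990-32982083 and chr2:165503787-165519917, and Slc2a12 (ENSMUSG00000037490.5, plus strand) is at chr10:22645011-22704285. Reads were 50 bases long, and no exact run of that length is common to the longest transcripts of any pair of the 6 genes. The longest runs that Slc2a4 shares with Slc2a1 and with Slc2a3 are shown because they are the longest among these 6 genes, and both are shorter than a read.
Slc2a1 and Slc2a4, 25 bases: ctctctccgtggccatcttctctgt
Slc2a3 and Slc2a4, 29 bases: gagctcttcagccagggcccccgcccagc
Runs of 50 bases found in exons of genes outside the family made up 1.74% of Slc2a1, 1.48% of Slc2a3, 8.69% of Slc2a12 and 0.0286% of Slc2a10, and none of Slc2a4 or Slc2a8. Exons of Slc2a12 overlap those of Tbpl1 over 9.61% of their length and exons of Slc2a1 overlap those of Gm12868 over 2.99%, so part of those reads cannot be assigned with certainty. How many reads of the human transgene were counted on mouse Slc2a1, or on another of the 6 genes, was not tested. The human transcript was not among the references used here, and exact runs between mouse genes do not show where its reads map. Every Slc2a1 value of the Glut1 tg libraries carries this limit.

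Reads in genes numbered 4065306 to 9815069 per library. Reads outside exons for every read in a gene were 0.886 to 1.07 in Glut1 tg Tnnt2low and 2.26 to 2.63 in Glut1 tg Tnnt2high. They were 1.13 and 1.50 in WT Tnnt2low, and 1.83 and 1.51 in WT Tnnt2high. This library make-up thus differed between the populations in Glut1 tg and in WT replicate 1, but hardly in WT replicate 2. It also separated the genotypes without overlap, Glut1 tg lying below WT in Tnnt2low and above WT in Tnnt2high cells. Its part in the differences between genotypes was not tested. Cardiomyocyte markers were abundant in all 12 libraries (summed level of 7 markers 98655 to 114901 CPM, read counts scaled to a library of standard size). Tnnt2 itself was lower in Glut1 tg Tnnt2low (12661 to 13976 CPM) than in Glut1 tg Tnnt2high (16086 to 20830 CPM), but the WT populations overlapped, with 15741 and 16731 CPM in Tnnt2low and 16254 and 17201 CPM in Tnnt2high. Xist and the Y-linked Ddx3y showed Glut1 tg replicates 2 and 4 to be male and the other libraries female.

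Slc2a1 was higher in every Glut1 tg library than in every WT library. In sorted bulk samples such as these, a change in the make-up of the cells and in the RNA of each cell cannot be told apart. In Tnnt2low cells its level in Glut1 tg replicates 1 to 4 was 79.7, 92.3, 44.9 and 75.3 CPM, against 27.7 and 15.9 CPM in the WT libraries. In Tnnt2high cells the Glut1 tg libraries had 73.9, 92.5, 33.5 and 53.9 CPM and the WT libraries 28.9 and 13.3 CPM. The genotypes overlapped in neither population, as for 5.39% of all genes tested with the Glut1 tg libraries higher in Tnnt2low and 5.9% in Tnnt2high cells, and replicate 3 was the lowest Glut1 tg heart in both. The log2 fold change between genotypes was 1.75 ± 0.42 (SE) in Tnnt2low cells and 1.60 ± 0.42 in Tnnt2high cells, a ratio of mean levels of 3.36 and 3.003.

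Slc2a3 (GLUT3), a transporter of high glucose affinity best known from neurons, showed the same order of genotypes at a lower level. Glut1 tg Tnnt2low replicates 1 to 4 held 29.2, 30.2, 9.90 and 21.0 CPM, from 78 to 305 reads, and the WT Tnnt2low libraries 4.17 and 2.24 CPM, from 28 and 15 reads. Glut1 tg Tnnt2high replicates held 26.4, 49.6, 11.9 and 19.0 CPM, from 48 to 181 reads, while the WT Tnnt2high libraries had 0 and 16 reads, or 0 and 2.15 CPM. The genotypes did not overlap in either population, and replicate 3 was again the lowest Glut1 tg heart. The log2 fold change was 2.81 ± 0.72 (SE) in Tnnt2low and 4.44 ± 0.83 in Tnnt2high cells. The size of the second rests on the WT libraries: without WT replicate 1, the library at 0 reads, it was 3.61, and without WT replicate 2, which leaves only the library at 0, it was 10.41.

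**Figure D1:**
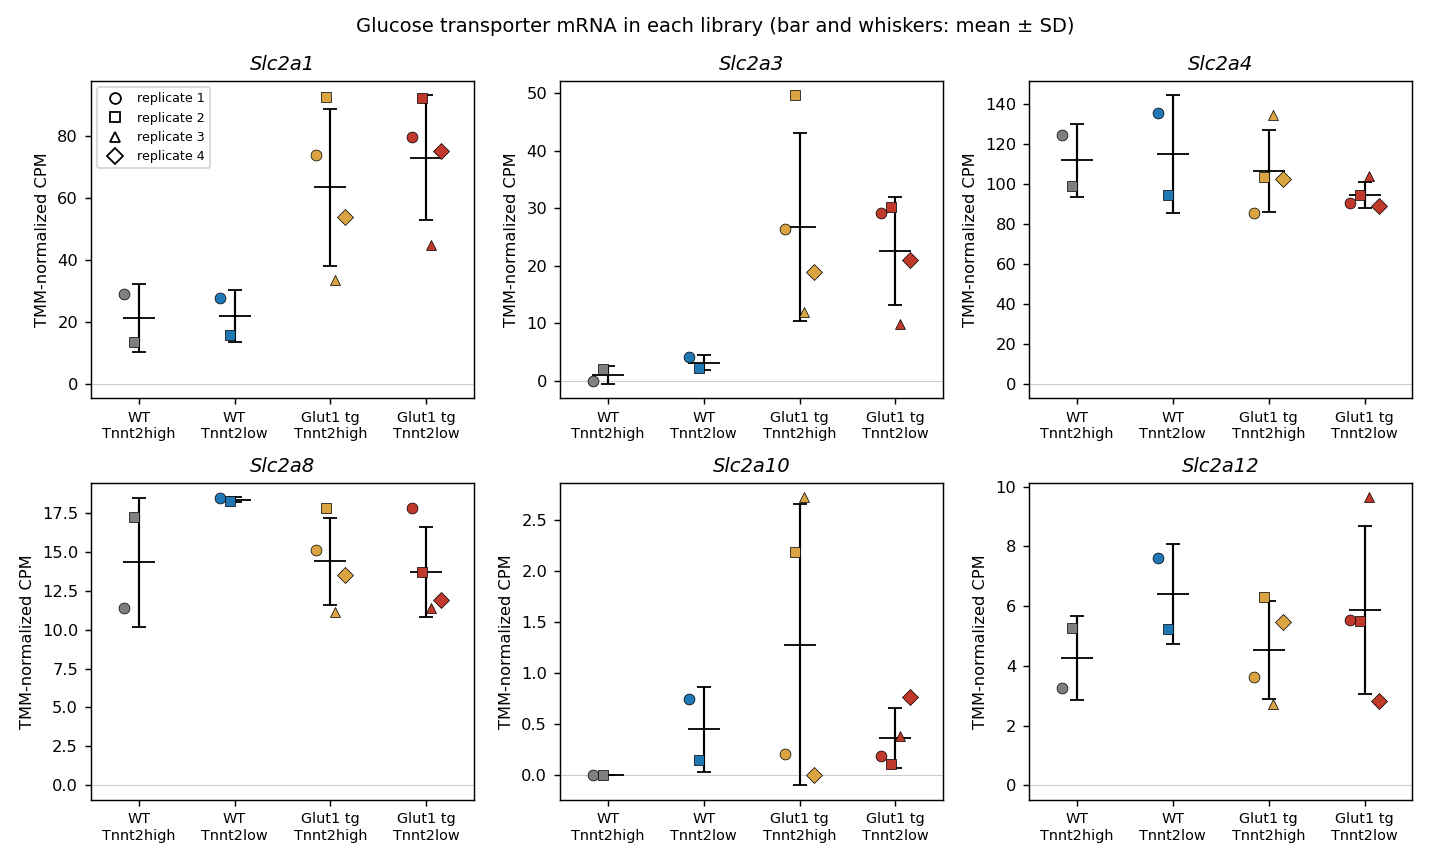
TMM-normalized CPM (y axis) of the 6 transporters in each of the 12 libraries, by genotype and sorted population (x axis). Colours mark the groups, symbols the replicate numbers, and the black bar with whiskers the mean ± SD of 2 (WT) or 4 (Glut1 tg) libraries. For Slc2a1 the lowest Glut1 tg library is at 33.5 and the highest WT library at 28.9, and for Slc2a3 these are 9.90 and 4.17, while the genotypes overlap for Slc2a4, Slc2a12 and Slc2a10.

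Neither transporter passed the test over all genes between genotypes. By edgeR's quasi-likelihood test with Benjamini-Hochberg adjustment over 12252 genes, 0 of 6 transporters were called at an adjusted p of 0.05 in Tnnt2low cells, where 0.00816% of all genes tested were called, and 0 of 6 in Tnnt2high cells, where the share of all genes was 0%. The adjusted p (edgeR) of Slc2a1 was 1 in Tnnt2low and 0.899 in Tnnt2high cells, and that of Slc2a3 was 1 and 0.543. Before adjustment Slc2a1 and Slc2a3 stood near the top of the table: edgeR's p was 8.48e-04 and 0.00147 in Tnnt2low cells, ranks 5 and 8 of the 12252 genes, and 0.00180 and 8.87e-05 in Tnnt2high cells, ranks 14 and 2. An unadjusted p under 0.05 with a higher level in Glut1 tg was reached by Slc2a1 and Slc2a3 in each population, against 0.93% of all genes in Tnnt2low and 2.17% in Tnnt2high cells. Slc2a10 also reached it in Tnnt2high cells, but it was tested only because it was high there, and it is not counted with them.

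The call depended on the method. Without the filter on low counts edgeR's adjusted p was 0.0106 for Slc2a1 and 0.0238 for Slc2a3 in Tnnt2low cells, and 0.0324 and 2.51e-04 in Tnnt2high cells. DESeq2 called Slc2a1 in Tnnt2low cells (adjusted p = 0.0104) but not in Tnnt2high cells (0.0556), and Slc2a3 in Tnnt2high cells (0.00230) but not in Tnnt2low cells (0.659). The study, which also used DESeq2, lists both genes among its top genes upregulated in Glut1 tg against WT in each population. Why its list differs from the DESeq2 results here was not tested. Over the 23 alternatives the log2 fold change stayed positive throughout, from 1.40 to 2.20 and from 1.14 to 2.24 for Slc2a1 and from 2.44 to 3.32 and from 3.61 to 10.41 for Slc2a3, in Tnnt2low and Tnnt2high cells respectively.

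Libraries of the 2 populations share their hearts, so the genotypes were also compared with each replicate number counted once, as the mean log2 CPM of its populations. Each Glut1 tg number is 1 heart, but the 2 WT numbers may be the same heart. The difference was 1.66 for Slc2a1 and 3.70 for Slc2a3 on the log2 scale, with all 4 Glut1 tg hearts above both WT numbers. The two-sided exact permutation test gave p = 0.0667 for each, the smallest value that 4 numbers against 2 can give (0.2 after Benjamini-Hochberg adjustment over the 6 transporters). If both WT numbers are the same heart, this p does not measure the spread between WT animals. Of all genes tested, 4.71% were higher in every Glut1 tg heart than in both WT numbers. A stricter count asked that all 8 Glut1 tg libraries lie above all 4 WT libraries, which 13 genes met, 0.106% of those tested. Slc2a1 and Slc2a3 were 2 of these 13. The lowest Glut1 tg level of Slc2a3 was 2.37 times its highest WT level, the widest gap of the 13 genes, and for Slc2a1 this ratio was 1.16, the third after that of Hells at 1.17.

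Slc2a1 and Slc2a3 also varied together among the Glut1 tg hearts. With the populations averaged, replicates 2, 1, 4 and 3 had 92.4, 76.8, 64.6 and 39.2 CPM of Slc2a1, and the same order held for Slc2a3 with 39.9, 27.8, 19.98 and 10.9 CPM. Over the 8 Glut1 tg libraries Pearson's r of log2 CPM was 0.90, and over all 12 libraries it was 0.79, the highest of 9496 genes compared with Slc2a1 (mean of at least 5 CPM). Slc2a8 followed both genes over the 8 Glut1 tg libraries, with r of 0.72 for Slc2a1 and 0.86 for Slc2a3, but not over all 12 (-0.17 and 0.11). These values describe libraries that share hearts and, over the 12, the genotype difference itself. Next in likeness to Slc2a1 were Smtn (r = 0.75) and Mid1 (0.74), and the genes most like Slc2a3 were 9630028I04Rik (0.95), Fiz1 (0.87) and Plcd1 (0.83).

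**Figure D2:**
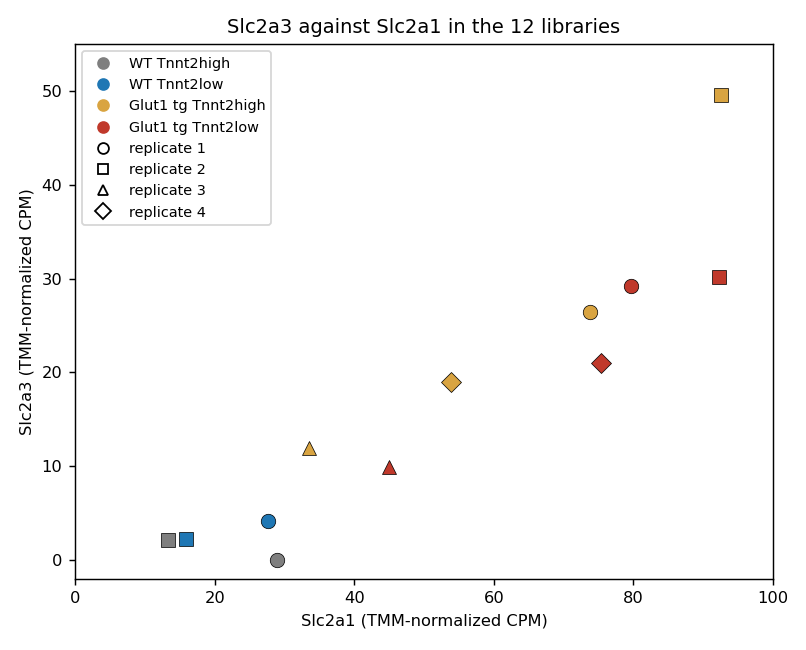
Slc2a3 (y axis) against Slc2a1 (x axis), both in TMM-normalized CPM, 1 point per library, with colours for the groups and symbols for the replicate numbers. The 4 WT libraries lie at no more than 28.9 CPM of Slc2a1 and 4.17 CPM of Slc2a3, and in both Glut1 tg populations replicate 3 is the lowest and replicate 2 the highest for each gene.

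Slc2a3 is also expressed by neurons, platelets and leukocytes, and Slc2a1 by endothelial cells and red cells, so markers of those cells were read in the same libraries. The summed level of 6 neuron and Schwann cell markers was 0.893 to 2.02 CPM in WT and 1.01 to 5.46 CPM in Glut1 tg libraries, with Snap25, Tubb3 and Sox10 at 0 in all WT libraries. Platelet markers (6 genes) summed to 1.49 to 4.69 CPM in WT and 0.992 to 4.84 CPM in Glut1 tg libraries, and Ppbp, Gp9 and Gp6 were at 0 in every library. Leukocyte markers (8 genes) summed to 0.404 to 2.83 CPM in WT and 0 to 8.07 CPM in Glut1 tg libraries, with Ptprc, Csf1r and Tyrobp at 0 in all WT libraries. For each of these lists the sum was below the level of Slc2a3 in every Glut1 tg library. A sum of markers does not measure how much Slc2a3 such cells hold, and the part they play in its level was not tested. Endothelial markers (8 genes) summed to 8.60 to 76.2 CPM in Glut1 tg Tnnt2low, 13.3 and 83.5 CPM in WT Tnnt2low, 29.5 to 236.6 CPM in Glut1 tg Tnnt2high, and 15.9 and 322.3 CPM in WT Tnnt2high, so that the genotypes overlapped. The erythroid list summed to 25.9 CPM or less, but the globin genes in it were listed at 0 in all 12 libraries.

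Slc2a4 had the most reads of the 6 genes in WT cells, and its 4 groups overlapped. Glut1 tg Tnnt2low replicates 1 to 4 had 90.6, 94.4, 103.7 and 88.9 CPM, and WT Tnnt2low libraries 135.7 and 94.2 CPM. Glut1 tg Tnnt2high replicates had 85.4, 103.5, 134.4 and 102.5 CPM, and WT Tnnt2high libraries 124.7 and 99.0 CPM. Replicate 3 was the highest Glut1 tg library and replicate 1 the highest WT library in both populations. The log2 difference between Glut1 tg and WT was -0.28 (95% interval -0.70 to 0.13) in Tnnt2low and -0.07 (-0.49 to 0.35) in Tnnt2high cells, and both upper bounds are below the fold changes fitted for Slc2a1. Among the 8 Glut1 tg libraries its level ran against that of Slc2a1, with Pearson's r of -0.77, replicate 3 having the most Slc2a4 and the least Slc2a1 in both populations. The genes most like Slc2a4 over the 12 libraries were B3galnt2 (r = 0.89), Sept11 (0.88) and Zfp574 (0.87).

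Slc2a8 (GLUT8), a transporter kept mostly in membranes inside the cell, was lower than Slc2a4 in all 12 libraries, below Slc2a1 in every Glut1 tg library and above it in both WT replicate 2 libraries. Its level was 17.8, 13.7, 11.4 and 11.9 CPM in Glut1 tg Tnnt2low replicates 1 to 4 and 18.5 and 18.2 CPM in WT Tnnt2low libraries. In Tnnt2high cells it was 15.1, 17.8, 11.2 and 13.5 CPM in Glut1 tg and 11.4 and 17.2 CPM in WT libraries. The Glut1 tg Tnnt2low libraries all lay below the WT ones, as for 6.02% of all genes tested, but the highest of them lay just under the lower WT library and the difference did not pass the test (log2 fold change -0.42, 95% interval -1.02 to 0.18, exact permutation p = 0.133). In Tnnt2high cells the genotypes overlapped, with a log2 difference of 0.00 (-0.63 to 0.63). The genes most like Slc2a8 were Senp3 (r = 0.90), Rbpms (0.90) and Bri3bp (0.89).

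Slc2a12 (GLUT12), which like Slc2a4 can respond to insulin, was read at a low level throughout. Glut1 tg Tnnt2low replicates held 5.55, 5.50, 9.64 and 2.81 CPM and WT Tnnt2low libraries 7.59 and 5.23 CPM. Glut1 tg Tnnt2high replicates held 3.63, 6.30, 2.73 and 5.46 CPM and WT Tnnt2high libraries 3.26 and 5.25 CPM. These came from 11 to 76 reads per library, the groups overlapped, and the log2 difference between genotypes was -0.13 (95% interval -1.22 to 0.97) in Tnnt2low and 0.07 (-1.08 to 1.23) in Tnnt2high cells. The genes most like it were Klhl23 (r = 0.88), Acap3 (0.86) and 1700020I14Rik (0.86).

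Slc2a10 (GLUT10), the gene mutated in human arterial tortuosity syndrome, was at the limit of detection. Glut1 tg Tnnt2low replicates 1 to 4 had 2, 1, 3 and 6 reads, Glut1 tg Tnnt2high replicates 1, 8, 11 and 0, WT Tnnt2low libraries 5 and 1, and WT Tnnt2high libraries 0 and 0. It passed the filter on low counts only through 2 Glut1 tg Tnnt2high libraries, so it had to be high there to be tested at all. A count of 0 in the 2 WT Tnnt2high libraries allows up to 3 reads (0.241 CPM over the group). The 20 reads of Glut1 tg Tnnt2high (1.13 CPM over the group) were 4.67 times that limit. That ratio leaves out the counting error of the 20 reads and rests on the libraries with 8 and 11 reads. As these are the libraries that carried the gene through the filter, the ratio is neither a lower bound nor a test. The edgeR test gave an unadjusted p of 0.0256 and an adjusted p of 0.899, its fitted fold change depends on the prior count, and the 2 genotypes overlapped. The genes most like it were Pja1 (r = 0.91), Vps53 (0.88) and Rsl24d1 (0.85), a likeness that at these counts is no finding.

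Between the sorted populations of Glut1 tg hearts, the libraries overlapped for all 6 transporters. In Glut1 tg cells 0 of 6 were called by edgeR between Tnnt2low and Tnnt2high, in a comparison that called 16.7% of all genes tested, 8.42% higher and 8.33% lower. An unadjusted edgeR p under 0.05 was reached by 0 of 6, against 15.7% of all genes higher and 15.3% lower. DESeq2 also called 0. The log2 difference of Tnnt2low from Tnnt2high was 0.21 (95% interval -0.46 to 0.87) for Slc2a1, -0.24 (-1.27 to 0.80) for Slc2a3 and -0.17 (-0.51 to 0.17) for Slc2a4. It was -0.07 (-0.57 to 0.43) for Slc2a8, 0.38 (-0.55 to 1.31) for Slc2a12 and -1.77 (-4.31 to 0.77) for Slc2a10. The edgeR adjusted p ranged from 0.339 to 0.879 over the 6 genes. Within hearts, Slc2a1 was higher in Tnnt2low cells in 3 of 4 Glut1 tg hearts and Slc2a4 lower in 3 of 4, while Slc2a3, Slc2a8 and Slc2a12 were each higher in 2 and lower in 2.

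In WT cells 0 of 6 transporters were called between the populations, where edgeR called 0% of all genes and DESeq2 again called no transporter. None had an unadjusted p under 0.05, a level that 1.2% of all genes reached with a higher and 1.91% with a lower value in Tnnt2low cells. The log2 difference of Tnnt2low from Tnnt2high was 0.06 (95% interval -0.93 to 1.05) for Slc2a1, 0.04 (-0.44 to 0.52) for Slc2a4 and 0.35 (-0.35 to 1.05) for Slc2a8. For Slc2a3 it was 1.39 (-0.57 to 3.35), from 28 and 15 reads against 0 and 16, and it moved to 0.57 without the WT Tnnt2high library at 0 reads and to 7.37 without the other one. Slc2a12 had 0.58 (-0.72 to 1.88). The 6 reads of Slc2a10 (5 and 1) stood against 0. Over the group they were 1.89 times the limit of 3 reads that a count of 0 allows. That ratio leaves out the counting error of the 6 reads, so it is not a lower bound. All 6 fitted differences were positive. Slc2a3, Slc2a8 and Slc2a10 were higher in Tnnt2low in both WT numbers and their libraries did not overlap, as for 15.3% of all genes tested. Exact permutation of 2 against 2 libraries cannot give a p below 0.333.

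The difference between the genotypes in how the populations differ (the interaction) was tested in the same fit. It was 0.15 ± 0.56 (SE) for Slc2a1, -1.63 ± 1.04 for Slc2a3, -0.21 ± 0.28 for Slc2a4 and -0.42 ± 0.41 for Slc2a8 on the log2 scale. None of the 6 was called by edgeR or DESeq2, and edgeR called 0% of all genes. Of the 5 transporters other than Slc2a10 none was below an unadjusted p of 0.05, a level reached by 2.2% of all genes with a lower and 2.32% with a higher value. Slc2a10 had an edgeR quasi-likelihood p of 0.0434 and an adjusted p of 0.961, but it entered the test only through 2 Glut1 tg Tnnt2high libraries, so that its value is not read against that share. The value of Slc2a3 rests on the WT Tnnt2high libraries: without replicate 1 of them, at 0 reads, it was -0.80, and without replicate 2 it was -7.60.

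**Figure D3:**
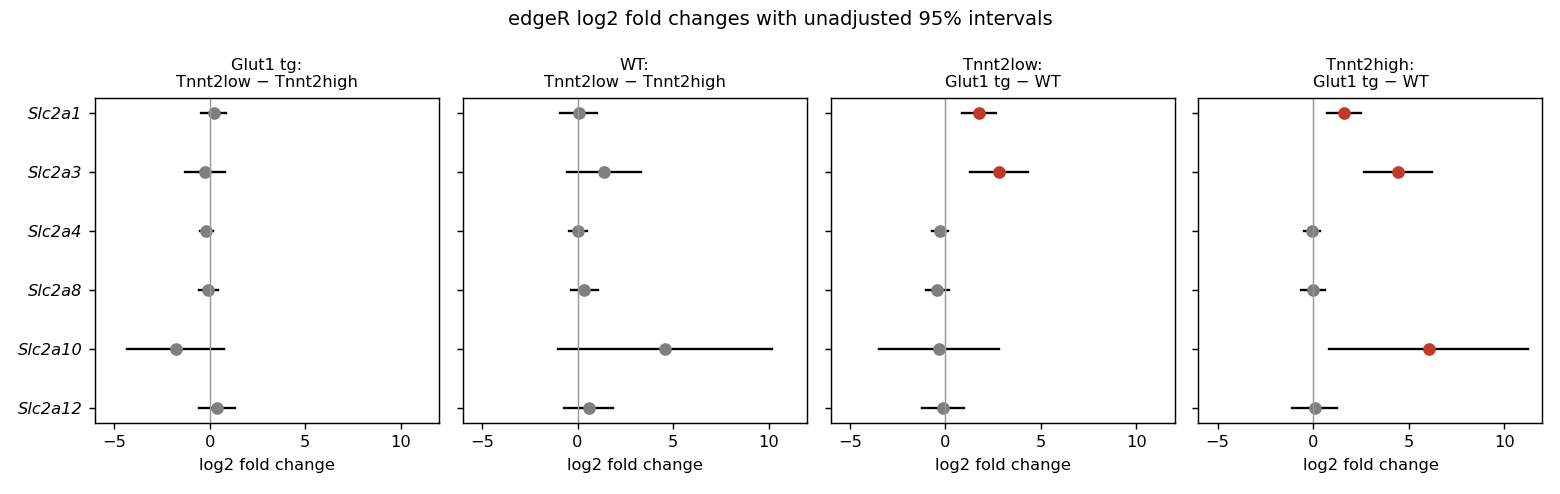
Log2 fold changes (x axis) of the 6 transporters (rows) from edgeR in 4 comparisons, with lines for unadjusted 95% intervals and red points where the interval leaves out 0. Slc2a1 and Slc2a3 are red in both genotype comparisons, at 1.75 and 2.81 in Tnnt2low and at 1.60 and 4.44 in Tnnt2high cells, Slc2a10 is red only in Tnnt2high cells, and no point is red between the populations. No difference shown passed the adjusted threshold.

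To compare transporters with each other, levels were divided by exon length (CPM per kb). Slc2a4 was first in all 12 libraries, at 27.1 ± 1.90 (SD, n = 4) CPM per kb in Glut1 tg Tnnt2low, 30.6 ± 5.87 (n = 4) in Glut1 tg Tnnt2high, 33.0 ± 8.42 (n = 2) in WT Tnnt2low and 32.1 ± 5.23 (n = 2) in WT Tnnt2high. Slc2a1 was second in 10 libraries, at 20.8 ± 5.73, 18.1 ± 7.26, 6.21 ± 2.39 and 6.03 ± 3.15 CPM per kb in the same order of groups. Slc2a8 was second in both WT replicate 2 libraries. Across libraries the ranges of Slc2a4 and Slc2a1 overlapped in both Glut1 tg groups and did not overlap in WT, whereas those of Slc2a1 and Slc2a8 overlapped in WT and did not in Glut1 tg. Slc2a3 overlapped Slc2a8 in both Glut1 tg groups and was behind Slc2a12 in all 4 WT libraries.

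Within a library, ratios of transporters do not depend on how libraries are scaled to each other. The per-kb ratio of Slc2a1 to Slc2a4 was 0.430 to 0.970 in Glut1 tg Tnnt2low and 0.247 to 0.887 in Glut1 tg Tnnt2high, against 0.134 to 0.230 in the 4 WT libraries. All 8 Glut1 tg libraries were thus above the WT libraries, with Tnnt2high replicate 3 closest to them. As a share of the summed per-kb level of the 6 genes, Slc2a1 made up 17.4% to 41.6% in Glut1 tg and 9.71% to 17.0% in WT libraries. Slc2a3 made up 2.74% to 9.68% in Glut1 tg and 0% to 1.04% in WT libraries, and per kb it was 0.107 to 0.259 of Slc2a1 in Glut1 tg and at most 0.0782 in WT. Slc2a4 took 42.1% to 70.6% in Glut1 tg and 69.7% to 74.0% in WT libraries, ranges that overlap through Glut1 tg Tnnt2high replicate 3.

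**Figure D4:**
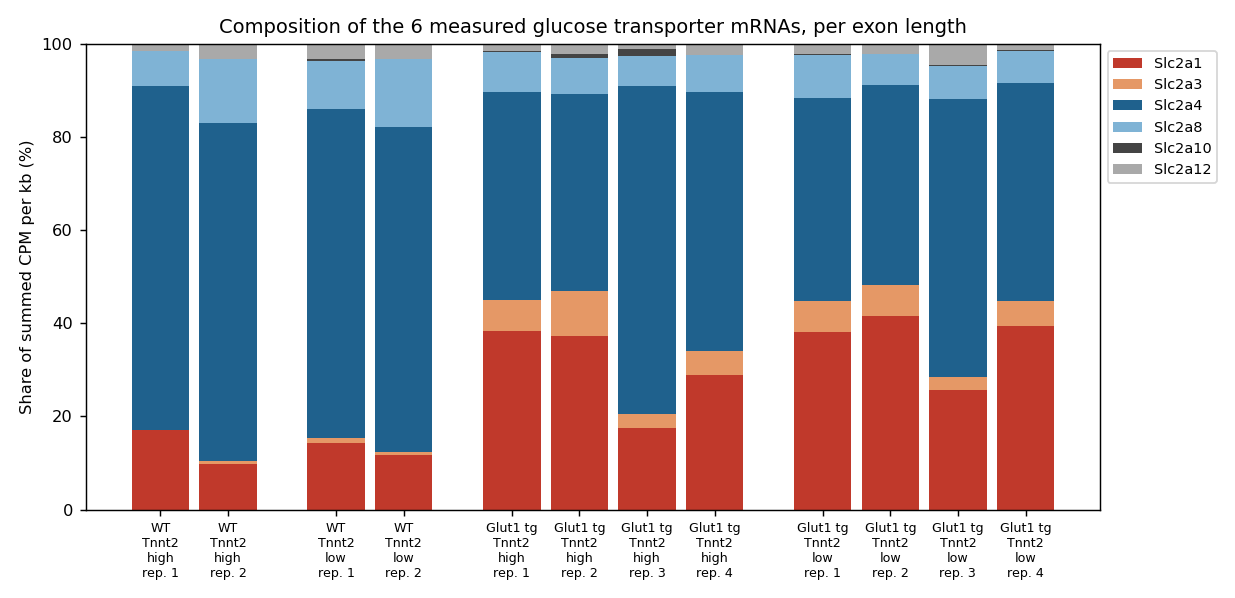
Share (y axis, %) of each of the 6 transporters in their summed CPM per kb of exon, 1 stacked bar per library, grouped by genotype and population. Slc2a1 takes 9.71% to 17.0% of the bar in WT and 17.4% to 41.6% in Glut1 tg libraries, and Glut1 tg Tnnt2high replicate 3 is the Glut1 tg bar nearest to WT.

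The other members of the family in the tables, Slc2a2, Slc2a5, Slc2a6, Slc2a7, Slc2a9 and Slc2a13, were read at 0 to 17 reads per library and 0 of 6 passed the filter. Of 7 sodium-coupled transporters of the Slc5a family, which carry sugars against their gradient in gut and kidney, 0 passed. Of the whole family, only the 6 transporters described here were therefore tested.

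Some genes that act on the transporters differed between the populations of Glut1 tg cells. Of 16 genes that carry the insulin signal to GLUT4 vesicles, 4 were called higher in Tnnt2low than in Tnnt2high cells by edgeR and 0 lower, where 8.42% of all genes were called higher. Their median log2 difference was 0.41, against -0.01 for all genes tested. They were the insulin receptor Insr (323.7 ± 29.1 against 202.1 ± 35.3 CPM, SD, n = 4), its adaptor Irs1 (141.4 ± 13.4 against 76.6 ± 2.80 CPM), the regulatory PI3-kinase subunit Pik3r1 (92.0 ± 21.8 against 53.8 ± 9.44 CPM) and the Rab GTPase-activating protein Tbc1d1. With the replicate number as a block, 6 were called higher and 1 lower, against 1204 and 1133 of all 12252 genes. With an offset for transcript length and GC content none of the 16 was called. Only 260 of 12191 genes were called higher at that setting, so 0 of 16 cannot be told from that share.

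The counts of the next 3 lists are likewise to be read against the 8.42% of all genes called higher, and those of vesicle cargo and of the kinases are too small to tell from it. Of 12 genes of GLUT4 vesicle cargo and fusion 2 were called higher, the vesicle aminopeptidase Lnpep (162.8 ± 13.8 against 117.6 ± 5.09 CPM) and the sorting receptor Sort1 (75.2 ± 2.01 against 49.8 ± 10.9 CPM), with a list median of 0.00. Of 16 transcription factors reported on Slc2a genes 5 were called higher, among them Mef2a (461.3 ± 29.4 against 310.0 ± 9.45 CPM) and Mef2d (157.8 ± 15.2 against 101.3 ± 9.001 CPM), which act at the Slc2a4 promoter, and the coactivator Ppargc1a, with a list median of 0.40. Of 3 measured kinases that trap glucose, Hk2, the insulin-regulated hexokinase of muscle, was called (192.5 ± 24.1 against 139.9 ± 28.3 CPM, edgeR adjusted p = 0.0477). With the length and GC offset only Mef2d stayed called in these 3 lists. Lrp1, the endocytic receptor carried by GLUT4 vesicles, was called lower. With that offset 260 of 12191 genes were called higher and 363 lower. Without Glut1 tg hearts 4 and 8 (replicates 2 and 4) no gene in the table was called between the populations. Markers of fibroblasts moved in the same comparison: 5 of 8 (Col1a1, Col1a2, Col3a1, Dcn and Postn) were called lower in Tnnt2low cells, with and without the offset, and their sum was 46.4 to 99.8 CPM in Tnnt2low and 149.2 to 897.8 CPM in Tnnt2high libraries. Of 7 smooth muscle and pericyte markers tested, 5 were lower and 2 higher in Tnnt2low cells. Pdgfrb was called lower in Tnnt2low cells (1.50 ± 0.80 against 8.30 ± 3.36 CPM) and Abcc9 higher (557.7 ± 22.0 against 404.7 ± 48.6 CPM). With the replicate block and with DESeq2, 3 were called lower and 1 higher, and with the offset only Pdgfrb stayed called. All 8 endothelial markers were lower in Tnnt2low cells, with a median log2 difference of -2.23. An unadjusted edgeR p under 0.05 was reached by 5 of the 8, against 15.3% of all genes lower. None was called in the main fit, but 7 were called lower with the replicate block, 5 without the filter and 1 with DESeq2. The part that fibroblasts, pericytes, endothelial cells and the unequal share of reads outside exons play in the differences was not tested.

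Of 10 genes that act in transporter trafficking and turnover 0 were called between the populations by edgeR or DESeq2, 1 having an unadjusted p under 0.05. None of these 5 lists had a gene called between genotypes in either population by either tool. In the trafficking list Txnip, an arrestin that promotes internalization of GLUT1 and GLUT4 and is itself induced by glucose, had a mean level of 588.0 ± 169.7 CPM in Glut1 tg and 418.2 ± 130.3 CPM in WT Tnnt2low cells. In Tnnt2high cells it had 646.3 ± 99.6 and 420.2 ± 140.7 CPM. The log2 fold change was 0.49 ± 0.27 (SE) and 0.62 ± 0.27, with an edgeR adjusted p of 1 and 0.899.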

How the data were processed

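Single-end 50-base reads were trimmed, mapped to mm10 with HISAT2 and counted over exons with HTSeq by the authors, who tested them with DESeq2. No source used here gives the versions, counting mode or strand setting. The deposited files hold raw counts per gene, with 5 rows that name no gene, left out of library sizes and tests. The labels describe the extract as tissue and the study's methods as sorted cells, and the latter was used.

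Counts were tested in R 4.3.3 with edgeR 4.0.16 (TMM, filterByExpr on the 4 groups, quasi-likelihood test) with all 12 libraries in 1 fit, called at an adjusted p of 0.05. CPM are TMM-normalized, log2 CPM used a prior count of 2, and the biological coefficient of variation was 0.314. Exact permutation tests were two-sided (24 single-gene comparisons; for Slc2a1 and Slc2a3 between genotypes the adjusted p over these was 0.4). DESeq2 1.42.0 and limma 3.58.1 served for alternatives, and the edgeR script was tested on simulated data. With 4 against 4 libraries and 1 common spread it called 31 of 100 simulated 2-fold and 100 of 100 simulated 4-fold changes. A count of 0 called therefore does not exclude 2-fold changes. Figures used Python 3.11.15 and matplotlib 3.10.9. Coordinates, exon lengths and shared sequence came from GENCODE vM21, in which 24054 genes matched, 678 of them by an older symbol. Some values of single items are not reported here.

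The replicate numbers pair the Glut1 tg libraries, as the labels name the heart. Deviations of same-numbered Glut1 tg libraries correlated at 0.107 to 0.226, though a pair from different hearts reached 0.120. In WT the labels name the same heart for both numbers. The WT correlation of same-numbered libraries was 0.271, but with 2 libraries per group both pairs must give the same value, so it does not settle the WT pairing. The members, the lists and the named genes were chosen with earlier results of these data known. Named were the 6 transporters, the 3 genes of at least 5 mean CPM most correlated with each, and up to 3 called genes a list, or the most abundant where none was called. Tbc1d1, Lrp1, Col3a1 and Postn, and Hells among the 13 genes, were named after their values were seen. Alternatives were other scalings, no filter, other fits, a replicate block, a length and GC offset, and leaving out libraries.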

Additional observations from a re-analysis of the deposited data

How the results depend on the processing

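The 0 transporters called became 2 in Tnnt2low and 2 in Tnnt2high cells between genotypes without the filter on low counts, and 1 and 1 with DESeq2. The other alternatives called none, and the older form of the edgeR fit equals the one used. The replicate block changed no call of a transporter, though with it the log2 difference between genotypes in Tnnt2high cells turned to -0.036 for Slc2a8 and -0.033 for Slc2a12. That of Slc2a8 there, 0.00 as reported, was also below 0 without the filter (-0.0069), with library size only (-0.066), with the newer form of the fit, added after seeing the data (-0.026), and without Glut1 tg hearts 4 and 8, the males (-0.13). Leaving out these hearts also turned Slc2a12 between genotypes (0.24 in Tnnt2low, -0.42 in Tnnt2high) and in the interaction (0.66), and Slc2a3 (0.026) and Slc2a8 (0.15) between Glut1 tg populations. With library size only Slc2a8 there was 0.084. With RLE and with library size only, the mean of Slc2a8 in WT Tnnt2low was 18.2 and 18.7 CPM, against 18.4. The cause was not tested. Leaving out 1 library gave ranges that cross 0 between Glut1 tg populations for Slc2a1 (-0.0051 to 0.44), Slc2a3 (-0.48 to 0.24) and Slc2a8 (-0.22 to 0.046), and between WT populations for Slc2a1 (-0.40 to 0.70) and Slc2a4 (-0.24 to 0.28). Between genotypes they cross 0 in Tnnt2low for Slc2a10 (-1.02 to 1.15) and Slc2a12 (-0.47 to 0.16), and in Tnnt2high for Slc2a4 (-0.22 to 0.10), Slc2a8 (-0.26 to 0.34) and Slc2a12 (-0.22 to 0.47). In the interaction they cross 0 for Slc2a1 (-0.49 to 0.61), Slc2a4 (-0.45 to 0.068) and Slc2a12 (-0.60 to 0.10). None of these was called. Over all genes, the 2052 calls between Glut1 tg populations became 623 with the length and GC offset and 0 without hearts 4 and 8, and ran from 1237 to 2127 without 1 library. The 1 and 0 calls between genotypes became 10 and 13 without the filter and 6 and 5 with DESeq2, and the 0 calls between WT populations 6 and 3. With library size only the split was 1694 higher and 670 lower against 1032 and 1020, the median of all genes moving to 0.14. Depth limits Slc2a10 and, in WT, Slc2a3.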
